A study of Mus musculus with 2 samples.

Results

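The 9 genes followed here encode the IL-1 family signals of mouse ear skin and the molecules that hold them in check: the agonists *Il1a*, *Il1b* and *Il18*, the inflammasome sensor *Nlrp3*, the receptor antagonist *Il1rn*, the decoy receptor *Il1r2*, and the signalling receptors *Il1r1*, *Il1rap* and *Il18r1*. They were chosen by name as members of this cytokine system, and all 9 were found among the 27998 genes of the files. One library came from healthy control ears and 1 from ears with DNFB-elicited allergic contact dermatitis (ACD), both from male ICR mice of 7 to 8 weeks. For ACD, dorsal skin was sensitized with 1.0% DNFB (2,4-dinitrofluorobenzene, a hapten), ears were painted with 0.2% DNFB on day 6, and ear skin was digested to single cells 60 hr later. How many animals entered each library is not given in the sources used here. With 1 library per condition there is no replicate, so ACD and control could not be compared by a test. Every interval below is an exact 95% interval that covers counting error only, and sequenced molecules of 1 cell are not independent.

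IL-1α and IL-1β signal through IL1R1 once IL1RAP has joined the complex. IL-1β and IL-18 are made as precursors that caspase-1 cuts in inflammasomes such as the one NLRP3 assembles, whereas IL-1α is active without this step. The antagonist encoded by *Il1rn* occupies IL1R1 without signalling, and IL1R2 binds IL-1 but lacks the signalling domain. In skin, keratinocytes are known stores of IL-1α and of the antagonist, and IL-1 from Langerhans cells and infiltrating phagocytes is known to take part in contact hypersensitivity.

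The genes lie on GRCm38 (mm10) as follows. *Il1a* (ENSMUSG00000027399, chromosome 2, 129299610 to 129309972, minus strand) and *Il1b* (ENSMUSG00000027398, chromosome 2, 129364570 to 129371139, minus strand) are close neighbours, and *Il1rn* (ENSMUSG00000026981, chromosome 2, 24336853 to 24351494, plus strand) is elsewhere on the same chromosome. *Il1r2* (ENSMUSG00000026073, 40074079 to 40125231), *Il1r1* (ENSMUSG00000026072, 40225080 to 40317257) and *Il18r1* (ENSMUSG00000026070, 40465552 to 40500854) follow each other on the plus strand of chromosome 1. *Il1rap* (ENSMUSG00000022514) lies on chromosome 16 (26581704 to 26730117), *Il18* (ENSMUSG00000039217) on chromosome 9 (50554827 to 50581840) and *Nlrp3* (ENSMUSG00000032691) on chromosome 11 (59541568 to 59566956), all on the plus strand.

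The promoters of both IL-1 agonists and of their antagonist are shown because these 3 genes were higher in ACD over all cells. Each run is RefSeq sequence of GRCm38.p6 on the gene's strand, from 250 bases before to 50 bases after an annotated start, with motif matches in capitals. They are chr2:129309923-129310222 (minus) for *Il1a*, chr2:129371090-129371389 (minus) for *Il1b*, and chr2:24336610-24336909 (plus) for the upstream start of *Il1rn*.
Il1a: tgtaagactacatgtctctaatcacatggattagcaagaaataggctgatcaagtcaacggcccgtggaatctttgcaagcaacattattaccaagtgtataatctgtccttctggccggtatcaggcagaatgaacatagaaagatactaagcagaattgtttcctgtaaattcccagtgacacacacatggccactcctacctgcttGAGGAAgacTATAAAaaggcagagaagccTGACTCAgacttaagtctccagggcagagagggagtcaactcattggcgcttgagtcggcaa
Il1b: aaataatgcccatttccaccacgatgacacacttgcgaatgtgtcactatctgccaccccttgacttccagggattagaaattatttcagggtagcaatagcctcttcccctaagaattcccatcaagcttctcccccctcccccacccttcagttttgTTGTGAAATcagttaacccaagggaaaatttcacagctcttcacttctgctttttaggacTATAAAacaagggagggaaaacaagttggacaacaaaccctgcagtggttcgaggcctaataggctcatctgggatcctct
Il1rn: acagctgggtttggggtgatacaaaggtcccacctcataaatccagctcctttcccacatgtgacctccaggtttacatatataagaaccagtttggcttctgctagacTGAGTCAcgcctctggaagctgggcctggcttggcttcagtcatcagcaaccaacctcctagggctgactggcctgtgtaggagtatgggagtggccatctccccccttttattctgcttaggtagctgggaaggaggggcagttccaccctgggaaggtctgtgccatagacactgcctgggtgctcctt
Both strands were searched for 5 motifs, which do not overlap in these promoters. They were the TATA box spelled TATAAA, the AP-1 motif of Fos and Jun proteins spelled TGANTCA, the core bound by the myeloid factor PU.1 spelled GAGGAA, the motif of C/EBP factors spelled TTNNGNAAT, and the kappa-B consensus. TATAAA began 32 bases before the start of *Il1a* and 31 before that of *Il1b*, and is present in 8.32% of 32851 promoters of this length. The *Il1a* promoter also held GAGGAA at -41 and TGACTCA at -12, the *Il1b* promoter TTGTGAAAT at -91 and the *Il1rn* promoter TGAGTCA at -141. TGANTCA is found in 7.81% of all promoters, TTNNGNAAT in 11.5% and GAGGAA in 28.3%. These matches describe letters and are not shown to be bound sites.

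Barcodes with more than 200 and fewer than 5000 genes, no more than 25000 UMIs (counted RNA molecules) and less than 8% of them mitochondrial were kept, after the study's limits. This left 12213 of 12895 control barcodes and 11665 of 13163 ACD barcodes, with medians of 6850 and 7447 UMIs. The paper reports fewer cells of each library after its own filtering, so the cells kept here are not its cell set. The libraries shared 50 barcodes. Each cell was gated on marker genes, and classes are called "-like" for that reason. Mixed cells, those with markers of rival classes, were 6.002% in control and 6.37% in ACD and joined no class, and 3.50% and 4.10% matched none. T/NK/ILC-like cells made up 6.67% of control and 29.3% of ACD cells, mononuclear phagocyte-like cells 0.491% and 1.88%, neutrophil-like cells 0.0246% and 0.540%, and dermal fibroblast (dFB)-like cells 30.8% and 15.4%. The 10 leading genes of the monocyte and dendritic cell gates held none of their own markers, and these gates are named by rule only. Chondrocyte-like cells, from ear cartilage, serve below as the measure of free RNA for genes that leukocytes make. They had clear *Il1r1* values of their own. They also held more *Il18* UMIs than any other class, at a low level, and are no background for either gene.

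Over all cells, *Il1a*, *Il1b*, the sensor and the antagonist were higher in ACD, and the IL-1 receptors lower. The *Il1b* level, in UMIs per 1000000, was 7.98 in control and 85.6 in ACD (736 and 8526 UMIs), a log2 ratio of 3.42 (3.31 to 3.53). One unassigned control cell held 115 of the 736 UMIs. *Il1a* was sparse, with 3 control and 79 ACD UMIs in 25 ACD cells, a log2 ratio of 4.61 (3.01 to 6.91). The control barcodes left out by the filter held 15 further *Il1a* UMIs and those of ACD 11, and with all barcodes the log2 ratio was 1.97. *Nlrp3* had 93 and 630 UMIs (2.65, 2.33 to 2.98) and *Il1rn* 57 and 165 UMIs (1.42, 0.98 to 1.88). As the mean over cells these log2 ratios were 3.33 and 3.14.

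On the receptor side, *Il1r2* had 13016 UMIs in control and 6572 in ACD, a log2 ratio of -1.10 (-1.14 to -1.06). *Il1r1* had 6607 and 4554 UMIs (-0.65, -0.70 to -0.59) and *Il1rap* 2975 and 1635 (-0.98, -1.06 to -0.89). *Il18r1*, the ligand-binding chain of the IL-18 receptor, moved the other way, with 999 and 4668 UMIs (2.11, 2.01 to 2.21). *Il18* did not differ beyond counting error, at 497 and 544 UMIs and a log2 ratio of 0.02 (-0.16 to 0.20). Of the 9 members, 5 were past 2-fold higher and 1, *Il1r2*, past 2-fold lower. Over the 15356 genes with at least 50 UMIs, 8.91% were past 2-fold higher and 2.02% lower, and the median log2 ratio was -0.05 against 1.42 for the members.

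**Figure D1:**
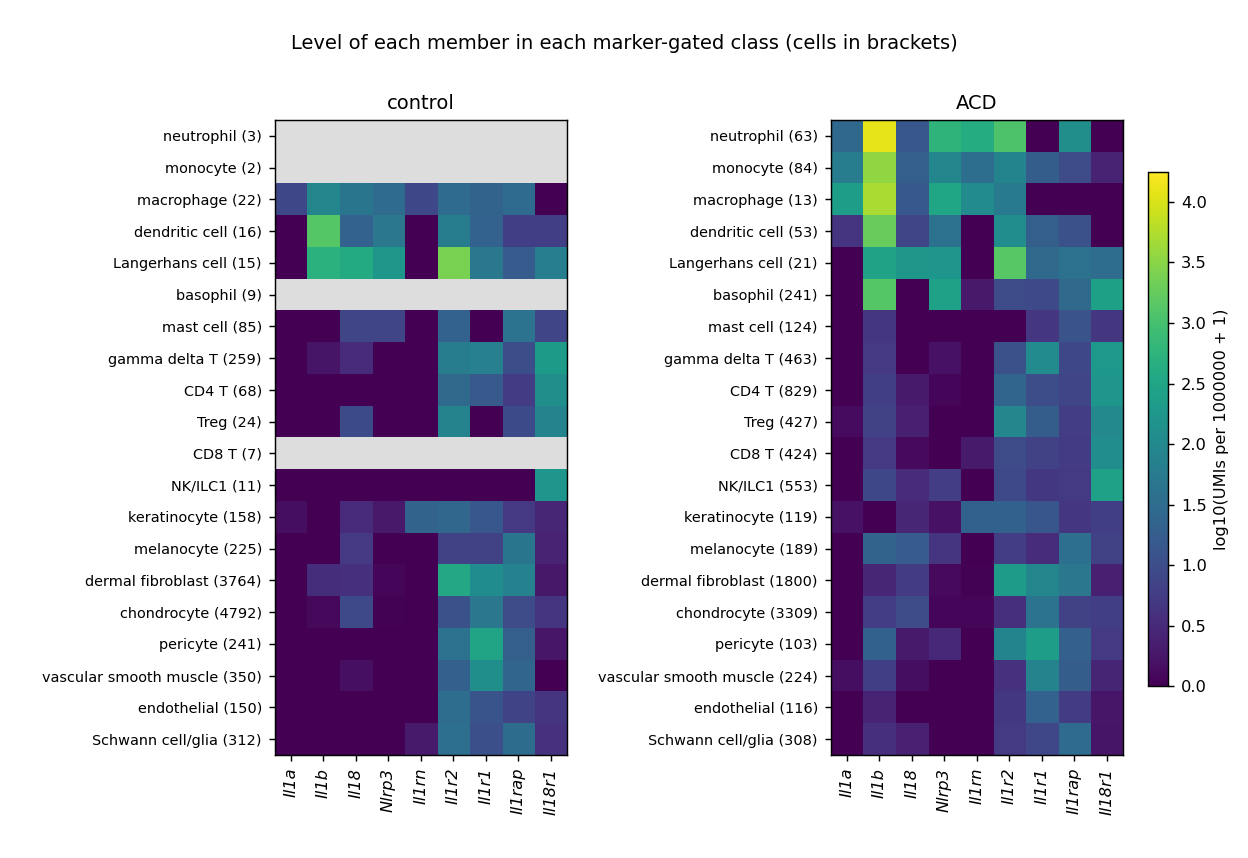
Level of each member in each marker-gated class in control (left) and ACD (right), as log10 of UMIs per 1000000 plus 1, with cells per class in brackets and classes under 10 cells in grey. *Il1b* stood out in the phagocyte and basophil rows, and *Il1r2* in Langerhans, neutrophil and fibroblast rows. *Il1r1* stood out in pericyte, fibroblast and gamma delta T rows, and *Il18r1* in lymphoid and basophil rows.

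The class shares changed between the libraries, so the all-cells ratio was recomputed with either the class shares or the levels within classes exchanged. With ACD class shares and control levels the log2 ratio of *Il1b* would be 3.32, close to the measured 3.42, and that of *Il18r1* 2.00 against 2.11. For *Il1r2* the same exchange gave 0.29, opposite to the measured -1.10, while ACD levels in control class shares gave -0.76. For *Nlrp3* the class shares alone gave 3.41, above the measured 2.65. Control levels of phagocyte classes rest on few cells (3 neutrophil-like and 60 mononuclear phagocyte-like), so these exchanged values are rough. CD8+ T-like cells weigh in too, with 7 control cells and 0.0364% of control but 3.77% of ACD UMIs. Their 28 control *Il1b* UMIs were in 1 cell, as were their 53 control *Il1r2* UMIs. The exchanged values of both genes lean on such single cells, and the sign of that of *Il1r2* is not secure.

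**Figure D2:**
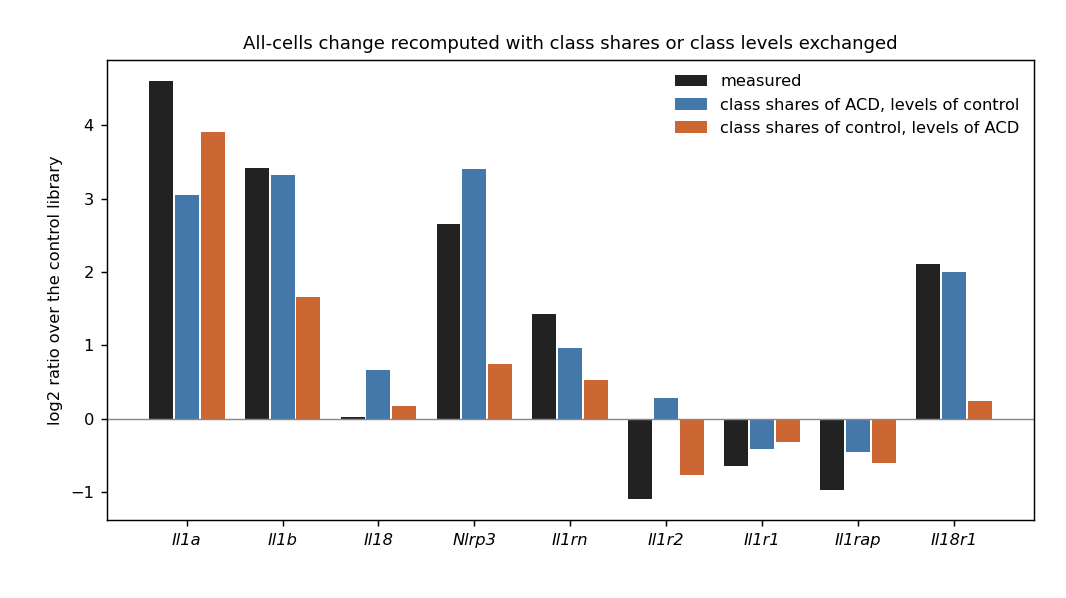
Log2 ratio over the control library for each member (vertical axis) as measured (black), with ACD class shares and control levels (blue) and with control class shares and ACD levels (orange). The blue bar reaches 3.32 for *Il1b* and points the other way, at 0.29, for *Il1r2*. Both values lean on single CD8+ T-like control cells.

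*Il1b* was found mainly in phagocytes and basophils. Of the 8526 ACD UMIs, mononuclear phagocyte-like cells held 46.2%, neutrophil-like cells 21.9% and basophil-like cells 16.2%. Per 1000000 UMIs the level was highest in the 63 neutrophil-like ACD cells, at 12194 (11646 to 12760). Next came macrophage-like cells (13 cells, 5054, 4548 to 5602), monocyte-gated cells (84 cells, 3526, 3378 to 3679), mononuclear phagocyte-like cells of no subset (48 cells, 2340, 2083 to 2620), dendritic cell-gated cells (53 cells, 1794, 1688 to 1905) and basophil-like cells (241 cells, 1325, 1256 to 1397). Langerhans-like cells were lower, at 276 (221 to 340, 21 cells). None of these neighbouring intervals overlapped, although single cells weighed heavily: 1 monocyte-gated cell held 286 of that gate's 2124 UMIs.

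All 63 neutrophil-like ACD cells had *Il1b* UMIs. After thinning to 2000 UMIs per cell the shares of *Il1b*-positive ACD cells were 100% of 30 neutrophil-like cells (33 shallower ones left out), 48.1% of mononuclear phagocyte-like cells, 26.5% of basophil-like cells and 0.425% of chondrocyte-like cells (unthinned 100%, 57.5%, 30.3% and 1.81%). The median depth of neutrophil-like cells was 1985 UMIs and that of chondrocyte-like cells 9087.

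In mononuclear phagocyte-like cells the *Il1b* level was 728 in control (653 to 809, 60 cells) and 2302 in ACD (2230 to 2375, 219 cells). The log2 ratio was 1.66 (1.501 to 1.82), and 1.08 with Leiden clusters in place of gates. The make-up of that class differed: 2 of 60 control cells and 84 of 219 ACD cells passed the monocyte gate. The 16 dendritic cell-gated control cells already had 1360 (1201 to 1535), and the 22 macrophage-like control cells had 87.5 (45.2 to 153). The 3 control neutrophil-like cells had 108 *Il1b* UMIs, or 18063 per 1000000.

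Several low *Il1b* values were near the chondrocyte-like level or rested on single cells. The chondrocyte-like level was 0.228 in control and 4.91 in ACD (9 and 159 UMIs), and T/NK/ILC-like cells had 7.74 and 6.64, of which 28 of 29 control UMIs were in 1 cell. In dFB-like cells *Il1b* was 2.64 and 1.87, and 45 of the 79 control UMIs were in 1 cell. No expression is read from values of this size.

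*Il1a* was mostly in phagocytes in ACD, where mononuclear phagocyte-like cells held 61 of 79 UMIs (77.2%). Monocyte-gated cells had 38 UMIs in 10 cells and macrophage-like cells 17 UMIs in 2 cells, 15 of them in 1. Of the 126 ACD mononuclear phagocyte-like cells with *Il1b*, 11.9% (6.82 to 18.9%) also had *Il1a*, and of the 93 without *Il1b* none did. Cells with *Il1b* were deeper (median 8277 against 4700 UMIs). Keratinocyte-like cells, a known store of IL-1α protein, had 1 *Il1a* UMI in each library (158 and 119 cells).

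*Nlrp3* had 279 of its 630 ACD UMIs (44.3%) in basophil-like cells, 167 (26.5%) in mononuclear phagocyte-like cells and 87 (13.8%) in neutrophil-like cells. By level the order was neutrophil-like (569, 456 to 702), macrophage-like (320, 203 to 481), basophil-like (267, 237 to 301), Langerhans-like (171, 129 to 223) and monocyte-gated cells (89.6, 67.3 to 117). The macrophage-like interval overlapped those of neutrophil-like, basophil-like and Langerhans-like cells, and 22 of its 23 UMIs were in 1 cell. Neutrophil-like, basophil-like, Langerhans-like and monocyte-gated cells had intervals apart from each other. In mononuclear phagocyte-like cells *Nlrp3* did not differ detectably between the libraries, at 76.6 (53.7 to 106) and 97.6 (83.4 to 114), log2 ratio 0.35 (-0.18 to 0.91), and -0.36 with Leiden clusters. In basophil-like ACD cells *Nlrp3* was found in 53.4% (41.4 to 65.2%) of 73 cells with *Il1b* and in 48.8% of 168 cells without it, at like depth (medians 3971 and 3979 UMIs).

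*Il18* had more UMIs in chondrocyte-like cells than in any other class, with 305 of 497 in control and 265 of 544 in ACD (7.73 and 8.19 per 1000000, log2 ratio 0.08, -0.16 to 0.33). Its level was highest in Langerhans-like cells, at 390 (288 to 517, 15 cells) in control and 177 (134 to 230, 21 cells) in ACD. In mononuclear phagocyte-like cells as a whole it was lower in ACD, 126 against 43.3, log2 ratio -1.54 (-2.05 to -1.02), and Langerhans-like cells made up 15 of 60 and 21 of 219 of them. In dFB-like cells *Il18* was low but higher in ACD, 2.74 and 4.63 (82 and 89 UMIs), log2 ratio 0.76 (0.31 to 1.21), and 0.28 with all barcodes. *Pi16*+ dFB-like cells held 60 of the 82 control and 72 of the 89 ACD UMIs of *Il18*. They were 1165 of the 3764 control and 894 of the 1800 ACD dFB-like cells. *Il18* levels were 6.19 (4.73 to 7.97) in control and 7.26 (5.68 to 9.14) in ACD in *Pi16*+ cells. In *Pi16*- cells they were 1.09 (0.681 to 1.64) and 1.83 (1.06 to 2.92), and both pairs of intervals overlapped. Chondrocyte-like and dFB-like *Il18* levels are of the size at which no *Il1b* expression is read above. The part of free RNA in them was not tested.

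In mononuclear phagocyte-like cells, *Il1a* and *Il1b* were past 2-fold higher and *Il1r2* and *Il18* past 2-fold lower among 5 members with enough UMIs. Of the 4820 genes tested there, 6.1% were past 2-fold higher and 4.71% lower. For *Il1r2* the log2 ratio was -1.08 (-1.27 to -0.88), and -0.81 with 1 more marker required. Langerhans-like cells held 311 of the 330 control and 440 of the 570 ACD *Il1r2* UMIs of this class. They made up 15 of its 60 control and 21 of its 219 ACD cells, so the ratio describes no phagocyte-wide change.

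**Figure D3:**
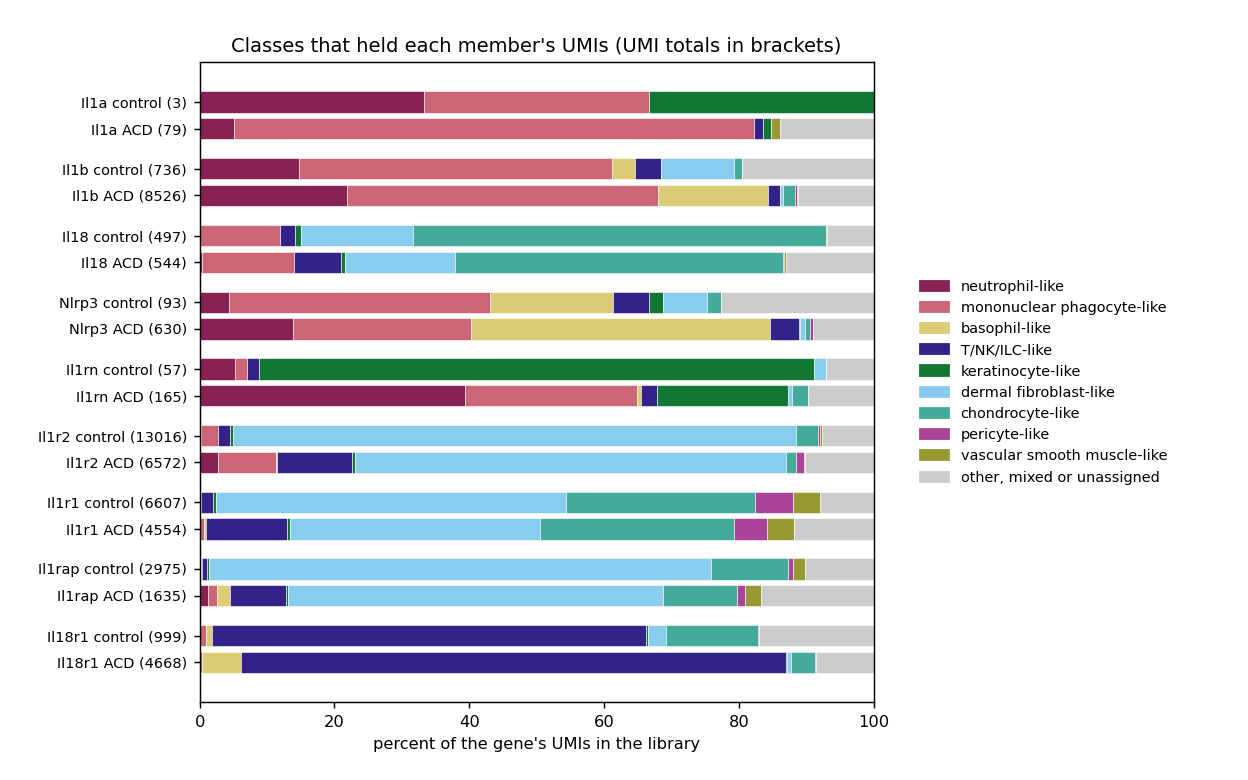
Percent of each member's UMIs (horizontal axis) held by each class in control and ACD, with UMI totals in brackets and other, mixed and unassigned cells in grey. Among the cells kept, phagocyte colours fill most of the ACD *Il1a* bar. Phagocyte and basophil colours fill most of the ACD *Il1b* and *Nlrp3* bars, and dFB-like cells most of the *Il1r2* bars (83.6% and 64.0%). Among these cells *Il1rn* is 82.5% keratinocyte-like in control, and 39.4% neutrophil-like and 25.5% mononuclear phagocyte-like in ACD. With all barcodes the neutrophil-like share of ACD *Il1rn* was 21.5%.

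The antagonist *Il1rn* was a keratinocyte transcript in control, where keratinocyte-like cells held 47 of 57 UMIs, and a phagocyte transcript among the ACD cells kept. There, neutrophil-like cells held 65 of 165 UMIs (39.4%, 31.9 to 47.3%), mononuclear phagocyte-like cells 42 and keratinocyte-like cells 32. The keratinocyte-like level did not differ beyond counting error, at 21.6 (15.8 to 28.7) and 20.2 (13.8 to 28.5), with -0.10 (-0.79 to 0.58) as the log2 ratio. In neutrophil-like ACD cells *Il1rn* reached 425 (328 to 542), in macrophage-like cells 111 (48.1 to 219.5) and in monocyte-gated cells 33.2 (20.3 to 51.3). Basophil-like cells, with 1383 *Il1b* UMIs, had 1 *Il1rn* UMI, and the 53 dendritic cell-gated cells, with 1062, had none.

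The upper gene limit removed many antagonist-bearing barcodes. Of the 1498 ACD barcodes left out, 117 passed the keratinocyte gate, 86 of them above the gene limit, and those 117 held 127 *Il1rn* UMIs. In control the 46 keratinocyte-gated barcodes left out held 35. With all barcodes, keratinocyte-gated *Il1rn* came to 82 UMIs in control and 159 in ACD, or 21.4 (17.0 to 26.5) and 21.0 (17.9 to 24.5) per 1000000. The same 117 ACD barcodes held 9 *Il1a* UMIs, against 1 in the keratinocyte-like cells kept. The predominance of neutrophil-like cells for *Il1rn* therefore holds only among cells kept. With all barcodes, keratinocyte-gated cells held more ACD *Il1rn* (159 UMIs) than neutrophil-like cells (65 UMIs kept and 2 left out, a share of 21.5%).

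Antagonist transcripts per agonist transcript were lower in ACD over all cells. There were 7.71 (5.78 to 10.1) *Il1rn* UMIs per 100 *Il1a* plus *Il1b* UMIs in control and 1.92 (1.63 to 2.24) in ACD. The log2 of this ratio per agonist UMI, -3.70 in control and -5.70 in ACD, was -3.00 and -4.92 with all barcodes and -4.52 and -5.34 as the mean over cells. Classes differed widely within ACD. The value was 3.48 (2.67 to 4.46) in neutrophil-like, 2.11 (0.90 to 4.19) in macrophage-like, 0.925 (0.56 to 1.43) in monocyte-gated and 0.0723 (0.0018 to 0.404) in basophil-like cells, and 0 in dendritic cell-gated cells, with an upper bound of 0.347. Mononuclear phagocyte-like cells of no subset had 4.59 (2.48 to 7.82). In neutrophil-like control cells it was 2.75 (0.56 to 8.26), not distinguishable from ACD at 3 *Il1rn* UMIs. In mononuclear phagocyte-like cells as a whole it was 0.292 (0.00736 to 1.64) in control and 1.051 (0.756 to 1.42) in ACD. These intervals overlapped, and *Il1rn* there had 1 control and 42 ACD UMIs, log2 ratio 3.53 (0.97 to 8.87). The lower value over all cells was therefore not seen within either class. Their macrophage-like subset had 7.69 (0.181 to 51.2) in control, from 1 *Il1rn* UMI. Of the 63 neutrophil-like ACD cells with *Il1b*, 58.7% (45.6 to 71.0%) had *Il1rn* as well, 66.7% *Nlrp3* and 79.4% *Il1r2*. Of the 73 basophil-like cells with *Il1b*, 1 had *Il1rn* and 2 had *Il1r2*.

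The decoy *Il1r2* was above all a dFB transcript. In control, dFB-like cells held 10886 of 13016 UMIs (83.6%), and in ACD 4205 of 6572 (64.0%). The dFB-like level was 363 (357 to 370) in control and 219 (212 to 225) in ACD, and the log2 ratio -0.73 (-0.79 to -0.68). After thinning, 39.8% (38.2 to 41.4%) of control and 23.6% (21.7 to 25.7%) of ACD dFB-like cells had an *Il1r2* UMI, against 1.09% and 0.425% of chondrocyte-like cells. Unthinned shares were 63.3% and 46.9% in dFB-like and 3.42% and 1.57% in chondrocyte-like cells, although ACD dFB-like cells were deeper (median 9690 against 7231 UMIs).

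Splitting dFB-like cells by the presence of 8 dermal markers in turn gave 16 overlapping groups, chosen with results known. *Il1r2* was lower in ACD in 15 of the 16, with intervals apart in 14, and the exception was *Gdf10*+ cells (179 in control and 219 in ACD). *Cyp2f2*+ cells were among the highest, with 472 (460 to 484) in control and 355 (340 to 371) in ACD, against 281 and 159 in *Cyp2f2*- cells. *Coch*+ cells had 161 and 122. *Il1r1* and *Il1rap* were lower in all 16 groups, with intervals apart in 13 each. *Il18* was higher in all 16, with intervals apart in 5.

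Per UMI, Langerhans-like cells exceeded dFB-like cells for *Il1r2*, with 2527 (2254 to 2824) in control and 1394 (1267 to 1531) in ACD. This rested on 311 and 440 UMIs in 13 cells of each library. Neutrophil-like ACD cells had 1164 (999.6 to 1349), an interval that overlapped that of Langerhans-like cells. Treg-like ACD cells had 92.5 (81.8 to 104, 268 UMIs), and CD4+ T-like cells 23.1. In the 24 Treg-like control cells *Il1r2* was 78.5 (37.6 to 144), a log2 ratio of 0.24 (-0.66 to 1.31). One control cell held 6 of those 10 UMIs, and without the cell with most UMIs in each library the ratio was 1.48.

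In pericyte-like cells *Il1r2* was higher in ACD, at 38.8 (48 UMIs, 241 cells) in control and 82.1 (81 UMIs, 103 cells) in ACD, a log2 ratio of 1.08 (0.55 to 1.63). Their median depth was 4588 and 8737 UMIs. *Il1r2* was the 1 of 2 members tested there past 2-fold, where 2.92% of 5270 genes were past 2-fold higher and 3.13% lower. Chondrocyte-like cells had 10.4 in control and 2.84 in ACD, log2 ratio -1.87 (-2.22 to -1.54), and -0.99 without Scrublet calls. They are no clean measure of free RNA for this dFB gene. Their level of the dFB gate marker *Lum* was 693 and 710, beside 1330 and 1491 in dFB-like cells. *Il1r2* was also lower in ACD in endothelial-like (32.5 and 3.94), vascular smooth muscle-like (19.2 and 2.99) and Schwann-like cells (34.9 and 4.29). Their levels were a few times the chondrocyte value or near it, and the part of free RNA in them was not tested. In gamma delta T-like cells *Il1r2* was 63.4 and 10.2, but 44 of 86 control UMIs were in 1 cell and the direction turned with the way cells were classed. One CD8+ T-like control cell alone held 53 of the 231 T/NK/ILC-like control UMIs.

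Chondrocyte-like cells had *Il1b* past 2-fold higher and *Il1r2* past 2-fold lower among 6 members tested, where 1.82% and 0.834% of 12833 genes were so. The *Il1r2* value without Scrublet calls was not past 2-fold, and the *Il1b* levels are of the size read above as no expression.

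The signalling receptor *Il1r1* was spread over stromal classes. By level it was highest in pericyte-like cells, at 301 (272 to 334) in control and 230.1 (201.1 to 262) in ACD. In control, vascular smooth muscle-like cells (127, 113 to 143) and dFB-like cells (114, 111 to 118) came next with overlapping intervals, then gamma delta T-like cells (70.7, 57.3 to 86.4) and chondrocyte-like cells (46.9, 44.8 to 49.1). These 4 stromal classes were lower in ACD. The log2 ratio was -0.38 (-0.46 to -0.29) in dFB-like, -0.39 (-0.63 to -0.15) in pericyte-like, -0.70 (-0.98 to -0.42) in vascular smooth muscle-like and -0.22 (-0.32 to -0.12) in chondrocyte-like cells. Of the dFB-like members tested, 0 of 6 passed 2-fold in either direction, and 3.44% of 12254 genes were past 2-fold higher and 1.08% lower there.

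Gamma delta T-like cells, the main dermal makers of IL-17A and known responders to IL-1β, had more *Il1r1* in ACD. The level was 70.7 (96 UMIs, 259 cells) in control and 111 (361 UMIs, 463 cells) in ACD, a log2 ratio of 0.65 (0.32 to 0.99), under 2-fold. With 1 more marker required it was 0.26. After thinning, 12.3% (8.48 to 16.9%) and 19.6% (16.1 to 23.5%) of the cells had a UMI, intervals that touch (unthinned 25.9% and 43.4%, median depth 4373 and 5967 UMIs). Of 3 members tested there, *Il1r2* was past 2-fold lower, where 2.75% of 7336 genes were past 2-fold higher and 3.46% lower. Other lymphoid classes of ACD had little, with 17.3 in Treg-like, 8.93 in CD4+ T-like, 5.60 in CD8+ T-like and 3.94 in NK/ILC1-like cells. Neutrophil-like cells had 0 *Il1r1* UMIs in 63 ACD cells, with an exact upper bound of 24.1 per 1000000, beside 178 *Il1r2* UMIs.

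Across T/NK/ILC-like cells *Il1r1* had a log2 ratio of -0.47 (-0.75 to -0.17). Gamma delta T-like cells made up 259 of these 814 cells in control and 463 of 3420 in ACD. None of 5 members was past 2-fold there, *Il1r2* lying just inside at -0.998 (-1.21 to -0.78) and turning to 0.62 with Leiden clusters, and 4.39% of 11199 genes were past 2-fold higher and 8.15% lower.

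**Figure D4:**
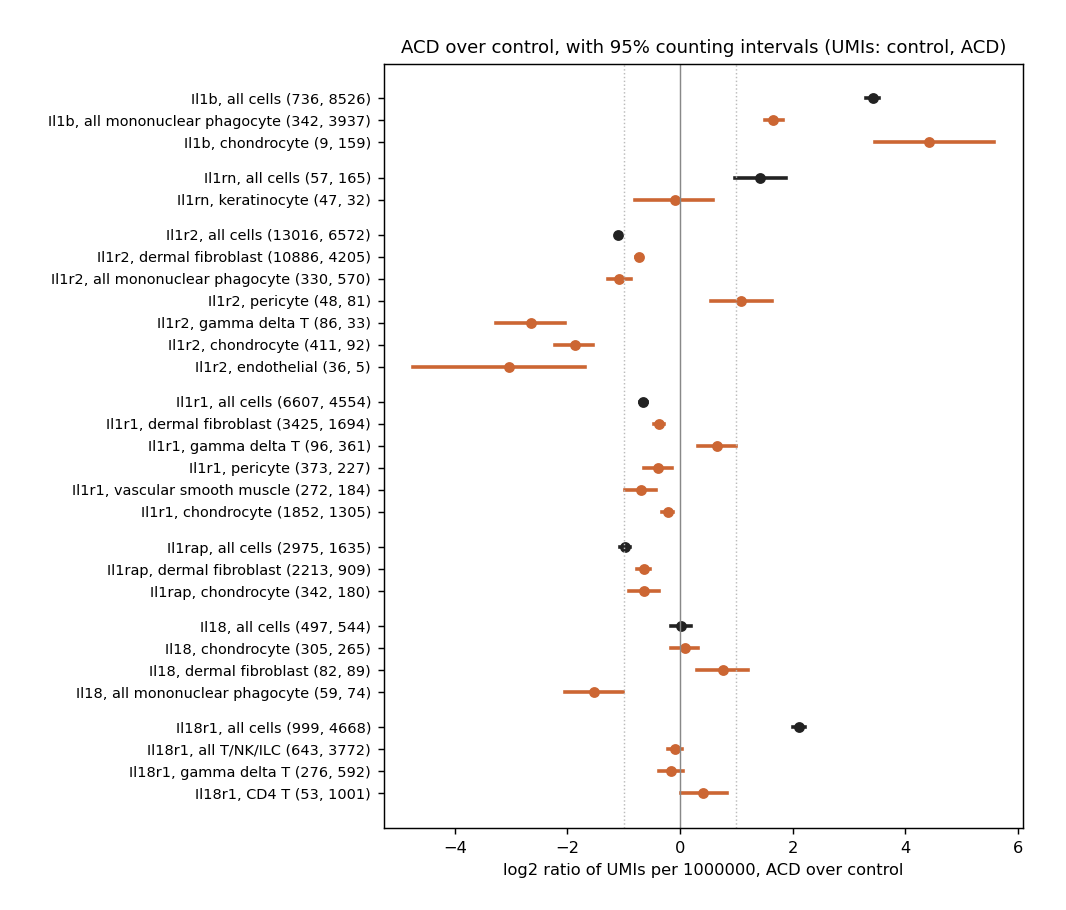
Log2 ratio of UMIs per 1000000, ACD over control (horizontal axis), for all cells (black) and within classes (orange), with exact 95% counting intervals as lines, dotted lines at 2-fold and UMIs of control and ACD in brackets. Of the classes drawn, *Il1r2* lies left of 0 except in pericyte-like cells (1.08), and *Il1r1* lies right of 0 in gamma delta T-like cells (0.65).

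*Il1rap*, the shared accessory chain, followed dFB-like cells, which held 74.4% of control and 55.6% of ACD UMIs. Its dFB-like level was 73.9 (70.8 to 77.0) and 47.3 (44.2 to 50.4), log2 ratio -0.64 (-0.76 to -0.53), and the chondrocyte-like level 8.67 and 5.56 (-0.64, -0.91 to -0.38). Of dFB-like cells with *Il1r1*, 42.5% (40.2 to 44.7%) in control and 38.7% (35.5 to 42.0%) in ACD also had *Il1rap*, and 72.3% and 61.9% also had *Il1r2*. Of dFB-like cells without *Il1r1*, 28.3% in control and 18.0% in ACD had *Il1rap*, and 53.7% and 32.3% had *Il1r2*. The cells with *Il1r1* were deeper than those without it (8205 against 6357 UMIs in control and 11810 against 7699 in ACD). In gamma delta T-like ACD cells with *Il1r1*, 4.48% (2.07 to 8.33%) had *Il1rap*, against 3.82% of those without *Il1r1*. Neutrophil-like ACD cells had 124 (74.8 to 194) and basophil-like cells 28.7 (19.4 to 41.0).

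Decoy per signalling receptor separated the classes over several orders of magnitude. Over all cells there were 1.97 (1.91 to 2.03) *Il1r2* UMIs per *Il1r1* UMI in control and 1.44 (1.39 to 1.499) in ACD. In dFB-like cells the ratio was 3.18 (3.06 to 3.30) and 2.48 (2.35 to 2.63), and in Langerhans-like cells 51.8 (23.5 to 142) and 48.9 (25.5 to 108). Below 1 lay chondrocyte-like cells (0.222 and 0.0705) and vascular smooth muscle-like cells (0.151 and 0.0380). Pericyte-like cells were at 0.129 (0.0932 to 0.174) in control and 0.357 (0.273 to 0.462) in ACD. Gamma delta T-like cells were at 0.896 and 0.0914 (0.0620 to 0.131), the former resting in good part on 1 cell. Treg-like ACD cells, in contrast, had 5.36 (3.95 to 7.40) *Il1r2* UMIs per *Il1r1* UMI. The gene levels compared in this ratio are 3′ UMI counts, which are not scaled to transcript length.

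**Figure D5:**
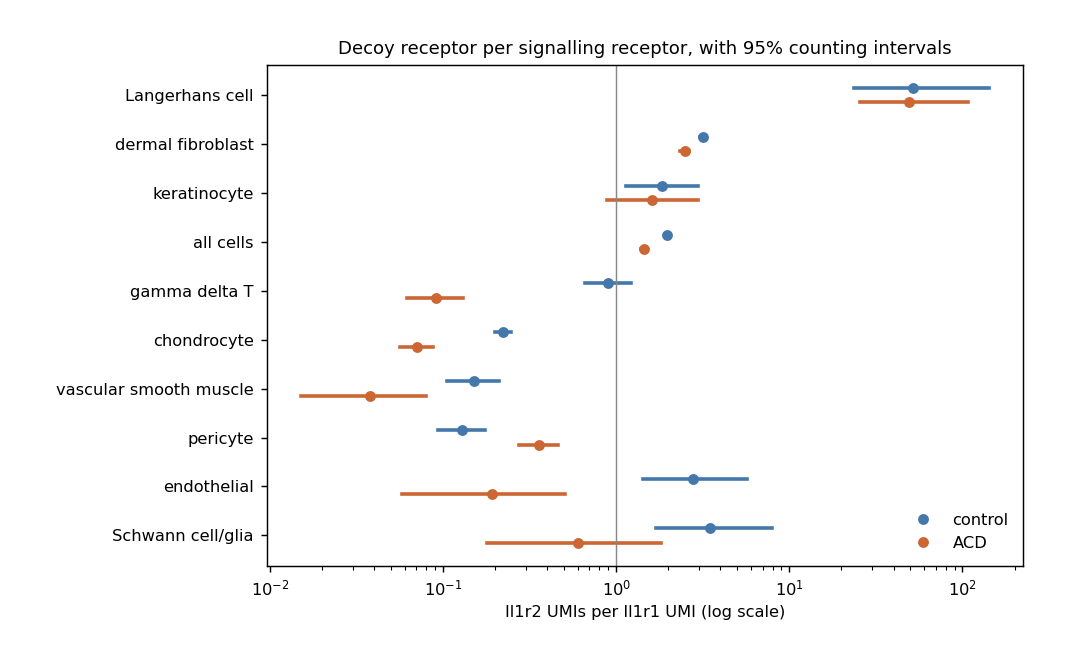
*Il1r2* UMIs per *Il1r1* UMI (horizontal log axis) by class in control (blue) and ACD (orange), with exact 95% counting intervals as lines. Langerhans-like cells sit near 50, dFB-like cells at 3.18 and 2.48, and pericyte-like cells are the class plotted whose ACD value (0.357) clearly exceeds its control value (0.129).

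The IL-18 receptor chain *Il18r1* was lymphoid and basophil. T/NK/ILC-like cells held 64.4% of its control UMIs and 80.8% of its ACD UMIs, and basophil-like cells 5.85% in ACD. The T/NK/ILC-like level was 172 (159 to 185) and 161 (156 to 166), a log2 ratio of -0.10 (-0.22 to 0.03), so the level per UMI did not differ beyond counting error, with 814 such cells in control and 3420 in ACD. In ACD, NK/ILC1-like cells (269, 250.4 to 288) and basophil-like cells (262, 231 to 295) did not differ beyond counting error. Gamma delta T-like cells (182, 168 to 198) and CD4+ T-like cells (169, 158 to 179) overlapped as well, followed by CD8+ T-like (121, 110 to 133) and Treg-like cells (98.8, 87.6 to 111). CD4+ T-like cells had 127 (94.9 to 166) in control, log2 ratio 0.41 (0.01 to 0.84). After thinning, 27.7% of ACD and 26.7% of control T/NK/ILC-like cells had an *Il18r1* UMI, against 0.850% and 0.586% of chondrocyte-like cells (unthinned 54.9% and 41.9%, and 4.20% and 2.17%).

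The wider IL-1 system was followed with 61 listed genes, of which 56 were in the files and 49 had at least 50 UMIs. Over all cells 15 of these 49 were past 2-fold higher in ACD and 0 lower, beside 8.91% and 2.02% of all genes. The higher ones were *Il33*; the brakes *Il18bp*, *Sigirr* and *Il1f5*; the receptors *Il18rap* and *Il1rl1*; *Pycard*, *Casp1*, *Casp4*, *Panx1*, *Aim2*, *Mefv* and *Ctsg* of the inflammasome and processing list; *Irak2*; and the chemokine *Cxcl2*.

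Listed genes are named below where their ratio was past 2-fold, with a log2 interval that leaves out 0, in the class with most of their UMIs over both libraries. As given above, 3.44% of genes were past 2-fold higher and 1.08% lower in dFB-like cells, and 1.82% and 0.834% in chondrocyte-like cells. *Il33*, an alarmin of the family, had levels of 5.28 in control and 25.9 in ACD in dFB-like cells (158 and 498 UMIs), log2 ratio 2.30 (2.03 to 2.56). *Il18bp*, a secreted IL-18 trap, had 0.868 and 9.41 there (26 and 181 UMIs), 3.44 (2.84 to 4.09), and its highest ACD level was in monocyte-gated cells (44.8). *Cxcl2*, a neutrophil chemoattractant induced by IL-1, had 33.0 and 80.0 in dFB-like cells, 1.28 (1.16 to 1.40), and reached 7870 in neutrophil-like ACD cells. The protease gene *Prtn3* had 0.735 and 2.60 in dFB-like cells (22 and 50 UMIs), 1.82 (1.07 to 2.62), and its highest ACD level was in dendritic cell-gated cells (11.8). The dFB-like *Prtn3* levels, and the control levels of *Il33* and *Il18bp* there, are of the size at which no expression was read for *Il1b*. The neutrophil gate marker *S100a9* had 0.134 and 3.02 in dFB-like cells, and the part of free RNA was not tested. *Il1f5*, encoding the IL-36 receptor antagonist, had 7.34 and 17.0 in keratinocyte-like cells (16 and 27 UMIs), 1.21 (0.27 to 2.20). *Il1f9*, encoding IL-36γ, had 1.01 and 0.494 in chondrocyte-like cells (40 of 60 control and 16 of 76 ACD UMIs), log2 ratio -1.04 (-1.97 to -0.17), with its highest ACD level in neutrophil-like cells at 216. Its chondrocyte-like levels are also of the size at which no expression was read for *Il1b*.

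The genes most alike to each member were taken by Pearson's r over 42 combinations of class and library, on log2 of UMIs per 1000000 plus 10, among 15356 genes. These points share libraries and depth, and r is given as a description. *Il1b* was closest to *Nlrp3* (0.94), *Ccr1* (0.92) and *Clec4e* (0.92), and *Nlrp3* to *Itgam* (0.95), *Igsf6* (0.94) and *Il1b*. *Il1a* was closest to *Mefv* (0.96), *F10* (0.93) and *Sirpb1c* (0.91), and *Il1rn* to *Fcgr4* (0.92), *Csf3r* (0.90) and *Arg2* (0.90). *Il18r1* had *Skap1* (0.95) and *Rinl* (0.91) among its closest, and *Il18* was closest to *Card9* (0.85), *Dpep2* (0.85) and *Nxpe5* (0.83). *F10*, *Fcgr4*, *Csf3r* and *Skap1* were themselves gate markers. The IL-1 receptor genes had partners with lower r. *Il1r1* was closest to *Gm11747* (0.78), *Ddit4l* (0.77) and *Kcne4* (0.77), *Il1r2* to *Tnfaip2* (0.67), *Mmp9* (0.65) and *Cd80* (0.60), and *Il1rap* had *Irs3* (0.69) and *Plk5* (0.67) among its closest.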

How the data were processed

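The authors sequenced 1 control and 1 ACD ear skin library with the 10x 3′ v2 chemistry, aligned reads to mm10 with Cell Ranger (3.1.0 in their processing notes), and deposited raw counts of UMIs for every gene and barcode, with no normalization. The 9 members, the gene lists and the markers were chosen with earlier results of these data known, and gate thresholds were set after the data had been seen. A cell joined the class with the highest share of its markers found, at least 3. It was mixed if a rival class also had 3 and at least 75% of that share. Subsets needed 2 to 4 markers. Levels are UMI sums per 1000000 UMIs of a class, with exact Poisson intervals. Ratios have exact conditional intervals and are given for classes of at least 20 cells in both libraries. A class with 0 UMIs got no ratio. Thinning drew 2000 UMIs per cell. Calls past 2-fold used genes with at least 50 UMIs. Scrublet marked 4.59% of control and 3.36% of ACD cells, which were kept in the main setting. Named genes were the members, listed genes past 2-fold in their leading class, and the 3 genes most alike to each member, of which some are not reported here. Leiden clusters were made without the members (2000 variable genes, 30 components, 20 neighbors, resolution 1). Positions are from GENCODE M21, in which 27645 of 27998 identifiers were found. Python 3.11.15, numpy 2.4.6, scipy 1.17.1 and scanpy 1.11.5 were used. The UMI limit of 25000 was taken as an upper limit, although the methods print it as a lower bound. Alternatives were the cell filter, doublet calls, clusters or stricter gates, the mean over cells, size factors, the denominator, thinning, pseudocount and UMI minimum. The intervals were tested on simulated data. Those counts were drawn as independent, as the intervals assume, so UMIs crowded in single cells were not covered.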

Additional observations from a re-analysis of the deposited data

Results flagged for a closer look

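Barcodes left out by the filter (682 in control, 1498 in ACD) enter only the values given with all barcodes or for barcodes left out. Among them, 3 members were higher in those of ACD than in those of control. *Il1b* was at 30.1 (28.1 to 32.2) UMIs per 1000000 against 1.02, *Il18r1* at 17.7 (16.1 to 19.3) against 3.36, and *Nlrp3* at 2.12 (1.60 to 2.74) against 0.438. Other members were lower there in ACD with intervals apart: *Il1a* at 0.409 (0.204 to 0.731) against 2.19 (1.23 to 3.61), *Il18* at 4.87 (4.07 to 5.77) against 9.64 (7.45 to 12.3), *Il1r1* at 37.8 against 49.6 and *Il1r2* at 49.3 against 62.2. Mixed barcodes held 12 of the 15 control *Il1a* UMIs left out. The cause was not tested.

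Members moved in opposite directions in different classes, and neither difference was tested. The log2 ratio of *Il1r1* was 1.35 higher in gamma delta T-like than in vascular smooth muscle-like cells (0.65 and -0.70). The former was 0.26 with 1 more marker required. That of *Il1r2* was 4.12 higher in pericyte-like than in endothelial-like cells (1.08 and -3.04), where the chondrocyte-like value was -1.87.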

How the results depend on the processing

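Each condition was 1 library, so batch and condition cannot be told apart, intervals miss the spread between animals, and classes of few cells or few UMIs (neutrophil-like and Treg-like control cells, *Il1a*) are imprecise. The all-cells log2 ratios kept their direction under every alternative run, except *Il18*, near 0. No paired analysis was possible because each condition was 1 library. Causes of the shifts below were not tested.

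With all deposited barcodes the all-cells log2 ratio was 1.97 for *Il1a*, 3.30 for *Il1b* and 1.98 for *Il18r1*, and with at least 500 genes and under 5% mitochondrial UMIs 2.27 for *Il18r1*. As the mean over cells it was 3.95 for *Il1b*, 3.14 for *Il1rn*, 3.33 for *Nlrp3*, -0.83 for *Il1r1* and -1.23 for *Il1r2*. Without chondrocyte-like cells it was 3.17 for *Il1b*, -0.90 for *Il1r1*, -1.31 for *Il1r2* and -1.21 for *Il1rap*, and with size factors -1.05 for *Il1r2*. With the cell holding most UMIs left out, an alternative chosen after seeing the data, it was 3.62 for *Il1b*.

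The log2 of *Il1rn* per *Il1a* plus *Il1b* (main -3.70 in control and -5.70 in ACD) was -3.00 and -4.92 with all barcodes and -4.52 and -5.34 as the mean over cells. That of *Il1r2* per *Il1r1* (0.98 and 0.53) was 0.84 and 0.44 as the mean over cells, and 1.03 in control with the stricter filter.

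The percent of ACD UMIs in the leading class moved as follows. With all barcodes it was 43.0% for *Il18*, 78.8% for *Il18r1*, 43.7% for *Il1b*, 60.8% for *Il1r2* and 21.5% for *Il1rn*. Without Scrublet calls it was 83.1% for *Il18r1*, 48.2% for *Il1b*, 38.9% for *Il1r1* and 66.2% for *Il1r2*. With Leiden clusters it was 43.0% for *Il18*, 85.1% for *Il18r1*, 89.9% for *Il1a*, 53.5% for *Il1b*, 40.0% for *Il1r1*, 71.7% for *Il1r2*, 59.9% for *Il1rap* and 48.6% for *Nlrp3*. With 1 more marker it was 76.2% for *Il18r1*, 43.7% for *Il1b* and 38.4% for *Nlrp3*. As the mean over cells it was 24.7% for *Il1b*, 32.9% for *Il1r1*, 54.7% for *Il1r2*, 42.5% for *Il1rap* and 64.6% for *Il1rn*.

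Of 300 within-class values, 274 kept their sign and 26 did not. Where the main interval left out 0, the sign turned for *Il1r2* with Leiden clusters, to 0.62 in T/NK/ILC-like and 1.70 in gamma delta T-like cells. The other sign changes were of ratios whose main interval held 0, such as *Il1b* with Leiden clusters, at 4.80 in dFB-like (main -0.49) and 3.62 in T/NK/ILC-like cells (main -0.22). Of all 300, 261 stayed inside the main interval. With a pseudocount of 1, 8 of 9 members had other genes among the 3 most alike.

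With at least 20 UMIs in place of 50, genes past 2-fold higher and lower numbered 646 and 597 (294 and 227) in mononuclear phagocyte-like, 693 and 223 (422 and 132) in dFB-like, 401 and 236 (234 and 107) in chondrocyte-like, 359 and 402 (154 and 165) in pericyte-like and 381 and 578 (202 and 254) in gamma delta T-like cells.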
